A study of Mus musculus with 15 samples.

Results

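Cardiomyocytes of Adamts19 knockout mouse hearts were compared between the alleles labelled tm4b and tm4a. All embryos were of the C57BL6/N background and were collected at E14.5, and both knockout groups were homozygous. The tm4a group comprised 4 Drop-seq libraries of heart cells (KO replicates 1 to 4) and the tm4b group 4 (KO replicates 5 to 8), out of 15 libraries in the series. The other 7 libraries were wild type (WT) and were used here only as a reference range. In Drop-seq, each cell's polyadenylated RNA is bound to a barcoded bead in a droplet, and transcripts are counted by unique molecular identifiers (UMIs). A barcode was taken as a cardiomyocyte when it had at least 300 detected genes and at least 2% of its UMIs came from 7 sarcomere genes (Actc1, Tnnt2, Tnni1, Tnnc1, Myl4, Myl7 and Ttn). This gave 6689 tm4b and 6392 tm4a cells, 13081 in all, of 28425 knockout barcodes with at least 300 genes and 50899 such barcodes in the series. Of the 13081 cells, 10025 were ventricular by the higher sum of Myl2, Myl3, Mb and Ckm, 2657 were atrial by the higher sum of Sln, Mybphl, Myl1 and Vsnl1, and 399 were tied. Near the limit, 552 knockout barcodes had 2 to 3% sarcomere UMIs and 376 had 1 to 2%.

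The alleles did not share a litter. The tm4a libraries came from litter 5 (KO replicate 1) and litter 6 (KO replicates 2 to 4), and all 4 tm4b libraries came from litter 7. The 8 knockout libraries share a flow cell, per the labels. Allele and litter therefore cannot be told apart in any comparison given here, and the p-values measure the spread between these libraries only. The labels state neither the number of embryos behind a library nor the exons of Adamts19 that either allele lacks. In the naming used by knockout mouse consortia, an allele of the "a" form carries a lacZ reporter and a selection cassette, and the "b" form is derived from it by recombination and keeps the reporter. The labels do not describe the cassettes, so this is background only.

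The knockout libraries held between 5477109 and 10105950 UMIs, of which 2918778 to 5516241 fell in cardiomyocytes. All 12 genes of a cardiomyocyte marker list were detected, but 7 of them chose the cells. The other 5 (Actn2, Myh6, Myh7, Nkx2-5 and Ryr2) together took 0.733 to 0.902% of cardiomyocyte UMIs in tm4a and 0.871 to 1.04% in tm4b libraries, and 0.0183 to 0.0454% and 0.0166 to 0.0197% in the other cells. Fibroblast and valve markers took 0.138 to 0.170% in tm4a and 0.144 to 0.164% in tm4b cardiomyocytes, and erythroid markers 0.0687 to 0.375% and 0.177 to 0.402%. Each allele had 2 libraries high in Xist and 2 high in Y-linked genes. Among 13076 distinct cardiomyocyte barcodes, 5 occurred in more than 1 library (0.0382%). Cardiomyocytes made up 48.9% ± 6.12 of kept barcodes in tm4a and 43.6% ± 5.90 in tm4b libraries (SD, n = 4 and 4), and the median UMI count per cardiomyocyte was 1707 ± 266 and 1679 ± 186. Exact two-sided permutation tests gave p = 0.286 and 0.829, where 4 libraries against 4 allow no p below 0.0286. Adjusted over the 5 library measures tested the values were 0.429 and 0.829, and a smallest possible p in 1 measure alone would not pass that adjustment. KO replicate 4 of the tm4a group stood apart from the other 3 in LacZ and in H19, and the counts are given with and without it.

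Embryonic cardiomyocytes contract while they still divide, and around this stage they draw much of their ATP from glycolysis in a heart that is relatively low in oxygen. As they mature they shift toward oxidative phosphorylation in mitochondria and exchange fetal for adult sarcomere proteins, for instance the slow skeletal troponin Tnni1 for the cardiac Tnni3. Atrial and ventricular cells share this contractile core but differ in their myosin light chains and in the genes for their action potential. Adamts19 encodes a secreted metalloprotease known from the heart valves.

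In tm4b cardiomyocytes, 681 genes rose and 666 fell relative to tm4a, that is 1347 of 11404 genes tested or 11.8% (edgeR quasi-likelihood test on UMI sums per library, Benjamini-Hochberg adjusted p under 0.05). Falls took in glycolytic enzymes, subunits of the respiratory chain and ribosomal proteins, and rises took in the connexin Gjc1, the cell cycle inhibitor Cdkn1c and several splicing factors. The median over all genes tested was 0.01 on the log2 scale. In 2070 genes (18.2%) the 4 tm4b libraries did not overlap the 4 tm4a libraries. The count without KO replicate 4 was 1613 (819 higher, 794 lower), and it dropped to 831 without KO replicate 3 and to 842, 794, 555 and 770 without KO replicates 5, 6, 7 and 8.

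Each of these calls rests on the spread among the 8 knockout libraries. When all 15 libraries were fitted together, so that the spread between the WT libraries entered the error, the same contrast gave 1 call (1573 genes with an unadjusted p under 0.05). When UMIs were summed per litter, which leaves 1 tm4b litter that is assumed to vary like the others, it gave 0 calls by edgeR (410 with an unadjusted p under 0.05). The WT libraries came from litters 1 to 4, and their spread may hold technical differences as well as those between embryos, which were not told apart. In 8867 of 11404 genes (77.8%) the means of both alleles lay within the range of the 7 WT libraries. The same held for 496 of the 666 genes that fell (74.5%) and 356 of the 681 that rose (52.3%). For the genes that rose, the tm4b mean alone lay outside the WT range in 230 (33.8%) and the tm4a mean alone in 81 (11.9%). These shares were 17.0% and 6.61% for the genes that fell, and 10.3% and 6.91% over all genes. Called genes were chosen by their difference between the alleles in these same libraries, so their shares depend on that choice and are a description.

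The targeted gene was low with both alleles. Adamts19 stood at 5.42, 5.12, 7.71 and 8.17 CPM (UMI counts scaled to a common library size with TMM factors) in the tm4a libraries and at 5.59, 3.90, 3.17 and 3.76 CPM in the tm4b libraries. All 8 were below the lowest of the WT libraries, which ran from 19.7 to 47.5 CPM. The alleles overlapped, and their difference was -0.63 log2 (SE 0.26, edgeR adjusted p = 0.124). The method reads transcript ends, and the labels do not say whether the deleted part reaches the end that was read.

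LacZ, the bacterial reporter counted as a feature of its own, was the transcript that separated the alleles by cell class. In all cardiomyocytes it stood at 45.5, 63.6, 139 and 5.66 CPM in tm4a replicates 1 to 4 and at 17.9, 13.5, 15.4 and 13.9 CPM in the tm4b libraries. Thus 3 tm4a libraries were above all tm4b libraries and KO replicate 4 was below them all. In WT cardiomyocytes LacZ had 0 of 30382441 UMIs, which allows up to 0.0987 CPM. The log2 difference of tm4b from tm4a was -2.03 (SE 0.53, edgeR adjusted p = 0.0237). It was -2.40 without KO replicate 4 (adjusted p = 0.00075) and -1.38 without KO replicate 3 (adjusted p = 0.0729), and the call was also lost without each of the tm4b libraries.

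Atrial cells had the highest reporter level, at 100.1, 152, 366 and 9.10 CPM with tm4a and 29.1, 24.9, 23.5 and 21.5 CPM with tm4b. There the difference of -2.58 (SE 0.51, edgeR adjusted p = 0.00853) kept its call without each library in turn. Ventricular cells held 37.2, 28.1, 95 and 4.87 CPM against 14.8, 8.59, 12.4 and 11.2 CPM (-1.78, adjusted p = 0.0374, and 0.0853 with DESeq2). That call was lost without KO replicates 1, 3, 5, 6, 7 or 8, and without KO replicate 3 the ventricular difference was -1.06 (adjusted p = 0.126). Cells that were not cardiomyocytes held 18.6, 19.7, 45.6 and 5.47 CPM with tm4a and 22.5, 23.3, 17.9 and 19.6 CPM with tm4b, and there the alleles overlapped fully (-0.12, adjusted p = 0.868). Expressed within each library, cardiomyocytes held 2.37, 3.18, 3.00 and 1.02 times the level of the other cells with tm4a, and 0.789, 0.575, 0.871 and 0.709 times with tm4b. Every tm4a ratio was above every tm4b ratio. That of KO replicate 4 rests on only 18 LacZ UMIs in cardiomyocytes and 11 in the other cells, so its place above the tm4b ratios is uncertain. The difference in ratio between the alleles was tested by the interaction of allele and cell class, with each library as its own block. LacZ was the 1 gene of 13164 to pass (0.0076%), at -1.94 log2 (SE 0.19, edgeR adjusted p = 8.03e-05), and it passed without each library in turn.

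**Figure D1:**
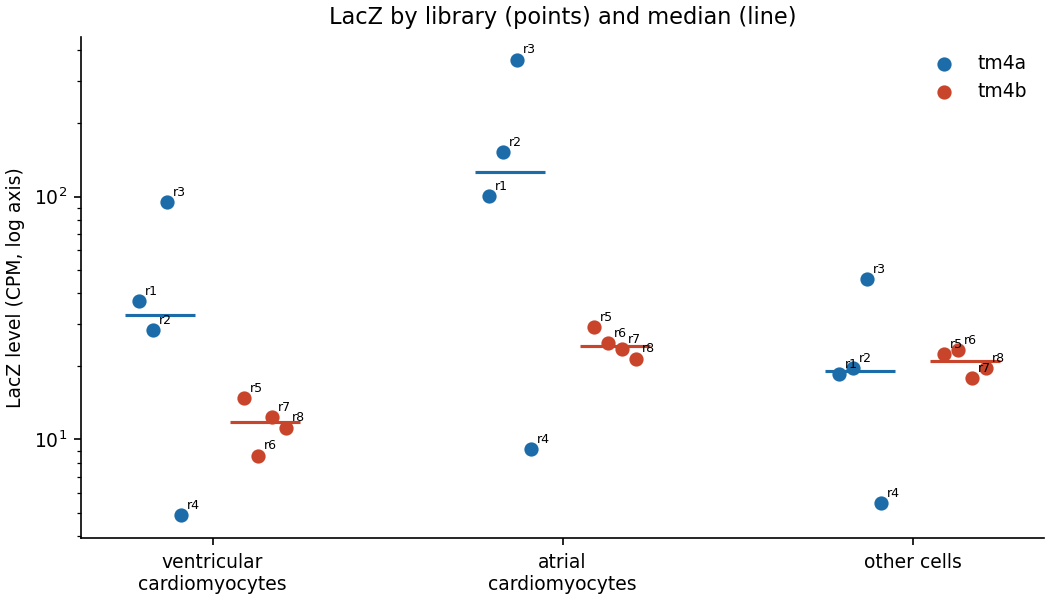
LacZ level in CPM on a log axis in ventricular, atrial and other cells, with each point a knockout library, the replicate number beside it and a line at the group median. In the atrial cells 3 tm4a libraries lie between 100.1 and 366 CPM, above the tm4b libraries at 21.5 to 29.1 CPM, KO replicate 4 lies at 9.10 CPM, and in the other cells the alleles overlap.

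The change was ordered by transcript length. Tested genes were put into 4 bins of about equal size by their longest annotated transcript. Among the 2831 genes of the shortest bin (up to 2166 bases), 52 rose and 413 fell, with a median of -0.14 log2. In the next length bins the counts were 119 and 154 (median -0.03), then 202 and 69 (median 0.04). Among the 2828 genes with the longest transcripts (4878 bases or more), 300 rose and 24 fell, with a median of 0.16. Spearman's rho between log2 difference and transcript length was 0.358 across 11320 genes, which share the same libraries and are not independent replicates.

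The same measure can be read in each library as the median log2 level of the longest bin minus that of the shortest, each gene centred on the 8 knockout libraries. It ran from -0.197 to -0.0796 in the tm4a and from 0.0777 to 0.223 in the tm4b libraries, so the alleles did not overlap. WT libraries ran from -0.467 to 0.684. In the cells that were not cardiomyocytes it ran from -0.172 to -0.115 with tm4a and from 0.0742 to 0.216 with tm4b.

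**Figure D2:**
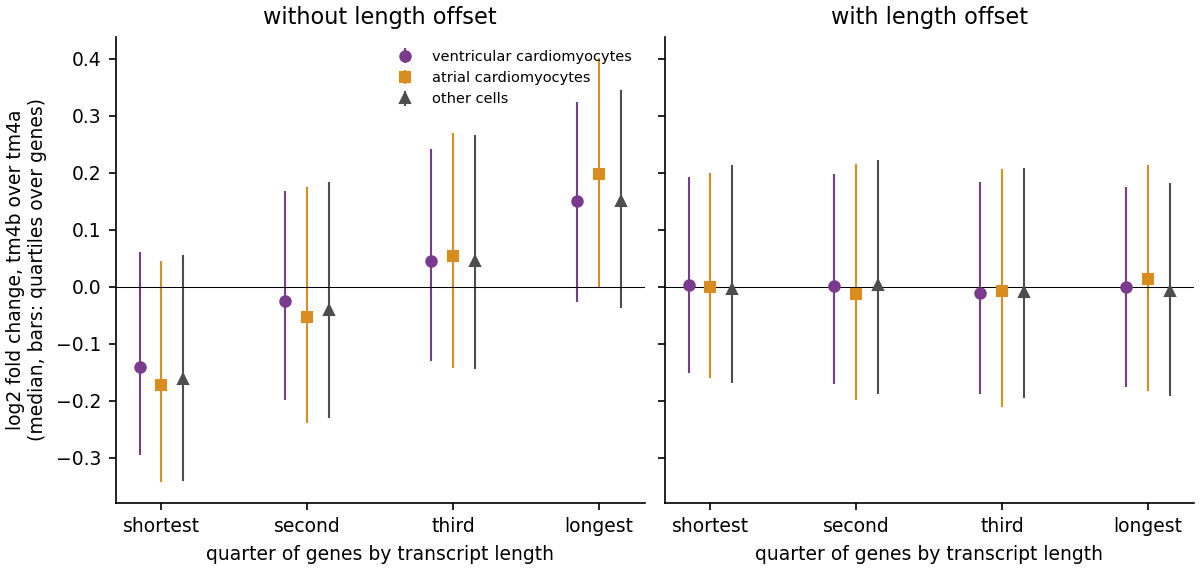
Median log2 difference (tm4b over tm4a) of the genes in each of 4 bins of transcript length in ventricular, atrial and other cells, without (left) and with (right) the length offset, with bars from the lower to the upper quartile over genes. Without the offset the atrial medians climb from -0.17 in the shortest to 0.20 in the longest bin, and with it the medians lie near 0.

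**Figure D3:**
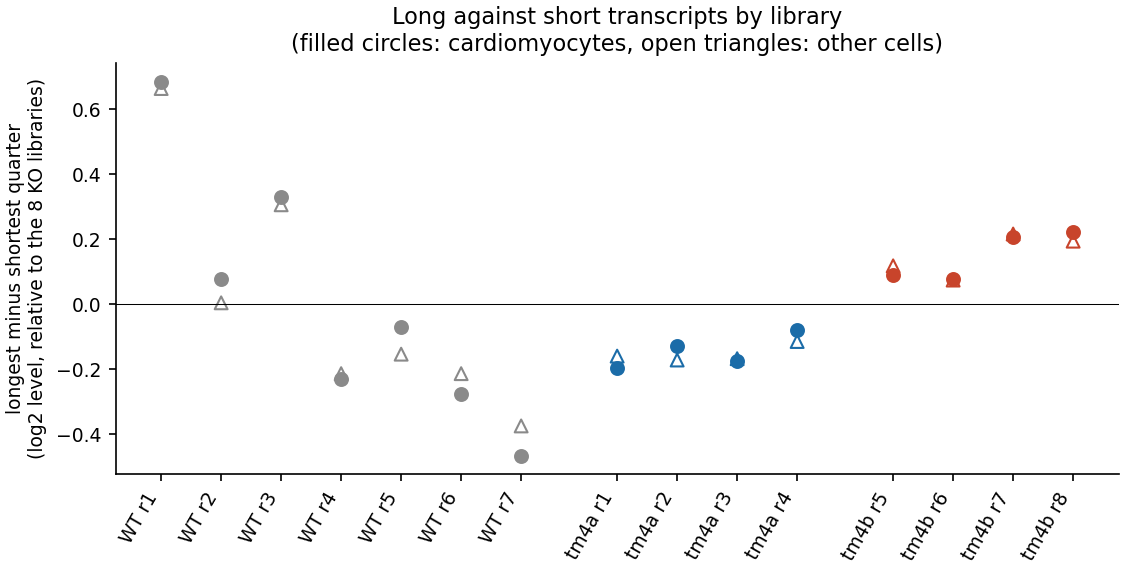
Median log2 level of the longest of 4 bins of genes minus that of the shortest for each library, relative to the 8 knockout libraries, with filled circles for cardiomyocytes and open triangles for other cells. The tm4a libraries lie below 0 and the tm4b libraries above it in both, while the WT libraries spread from -0.467 to 0.684 in cardiomyocytes.

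Results on gene groups are given also with a length offset, in which a smooth trend of log counts on log transcript length is removed from every library. With the offset 635 of 11320 genes passed (5.61%), 359 higher and 276 lower, and the 4 bins had medians between -0.01 and 0.01. A group of genes with short transcripts can lose its calls with the offset, and a loss does not say which of the values is closer to the cells.

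Glycolytic genes were lower in tm4b cardiomyocytes, with and without the length offset. Of 26 tested genes for glycolysis and the hypoxia response, 13 fell and 0 rose, beside 5.84% of all genes that fell, with a median of -0.38 log2 and 23 of 26 below 0. With the offset 11 of 25 fell and 0 rose, beside 2.44% of all genes, with a median of -0.33. The genes that fell cover most steps of the pathway, from the glucose transporter Slc2a1 through Gpi1, Pfkl, Pfkm and Aldoa to Pkm, Ldha and the lactate and pyruvate exporter Slc16a3. The number that fell was 7 without KO replicate 7 and 15 without KO replicate 4. The call of Slc2a1 was lost without KO replicate 6 (adjusted p = 0.0509) or 7 (0.0502).

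Aldoa, which splits fructose bisphosphate, stood at 2288, 2083, 2235 and 2254 CPM in the tm4a and at 1355, 1341, 1282 and 1409 CPM in the tm4b libraries (-0.72 log2, SE 0.07, edgeR adjusted p = 0.000194). The groups lay far apart, while the WT libraries spanned both, from 983 to 2315 CPM. Ldha, which turns pyruvate into lactate, stood at 2469, 2068, 2128 and 2356 CPM against 1612, 1692, 1569 and 1420 CPM (-0.52, SE 0.08, adjusted p = 0.00281, and -0.42 with the offset). Pkm, the last enzyme of glycolysis, stood at 1425, 1216, 1305 and 1283 CPM against 967.5, 938, 870.2 and 905 CPM (-0.51, SE 0.08, adjusted p = 0.00208, and -0.45 with the offset). In both genes every tm4a library was above every tm4b library. Pfkl, the liver form of phosphofructokinase, stood at 187, 177, 183 and 201 CPM against 135, 136, 129.8 and 126 CPM (-0.51, SE 0.08, adjusted p = 0.00242, and -0.54 with the offset).

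Aldoa has no length value here and so no value with the offset. The 4 genes were called without each library in turn in all cardiomyocytes. Bnip3, a mitochondrial protein induced by low oxygen, fell by 0.44 (SE 0.08, adjusted p = 0.00541, and -0.33 with the offset), from 345 ± 23.9 to 253 ± 17.6 CPM (SD, n = 4 and 4). Vegfa, another gene known to respond to low oxygen, was not called (0.29 log2, adjusted p = 0.263). Eno1 and Pgk1 had the largest falls on the list (-1.11 and -1.22 log2), but their alleles overlapped, Eno1 lost its call without KO replicates 7 and 8, and Pgk1 without KO replicates 1, 6, 7 and 8. Eno1, Pgk1 and Gapdh have near-identical processed copies, among which reads may have been split, and their counts are uncertain.

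Promoter sequence of 3 genes of this list that fell is shown, because the factor that low oxygen stabilises, HIF1, binds a short core of the letters ACGTG or GCGTG. Each stretch holds the 150 bases before the gene start that RefSeq gives, on the gene's own strand and build GRCm38.p6, with matches to either core on either strand in capitals. They lie at chr10:78009808-78009957 (minus strand) for Pfkl, chr7:46845654-46845803 (plus strand) for Ldha and chr7:138909507-138909656 (minus strand) for Bnip3.
Pfkl: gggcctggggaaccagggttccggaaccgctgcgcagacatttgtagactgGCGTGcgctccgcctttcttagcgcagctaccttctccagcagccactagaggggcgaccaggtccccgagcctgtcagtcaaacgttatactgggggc
Ldha: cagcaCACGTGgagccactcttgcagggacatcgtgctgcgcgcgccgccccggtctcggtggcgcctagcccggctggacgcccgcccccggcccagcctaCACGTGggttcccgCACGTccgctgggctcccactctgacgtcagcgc
Bnip3: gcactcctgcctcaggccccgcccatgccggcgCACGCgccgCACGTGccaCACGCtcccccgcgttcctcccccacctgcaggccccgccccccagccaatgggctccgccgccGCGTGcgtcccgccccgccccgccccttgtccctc
Matches on the opposite strand read CACGT or CACGC, and overlapping matches run together, as in CACGTG. The window of Pfkl held 1 match, and those of Ldha and Bnip3 held 5 each. Of the 25 tested genes of the list with a promoter in the table, 17 held a match (68.0%), against 7763 of 27025 promoters in all (28.7%). The list was made of glycolysis and hypoxia genes, so its higher share than all promoters says nothing about the alleles. Of the 13 that fell, 9 held a match (69.2%), and of the 12 that did not, 8 did (66.7%). The 3 genes shown all hold a match and so do not stand for all 13. A match is a description of letters and shows no binding, and a part of HIF1 in the falls was not tested.

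**Figure D4:**
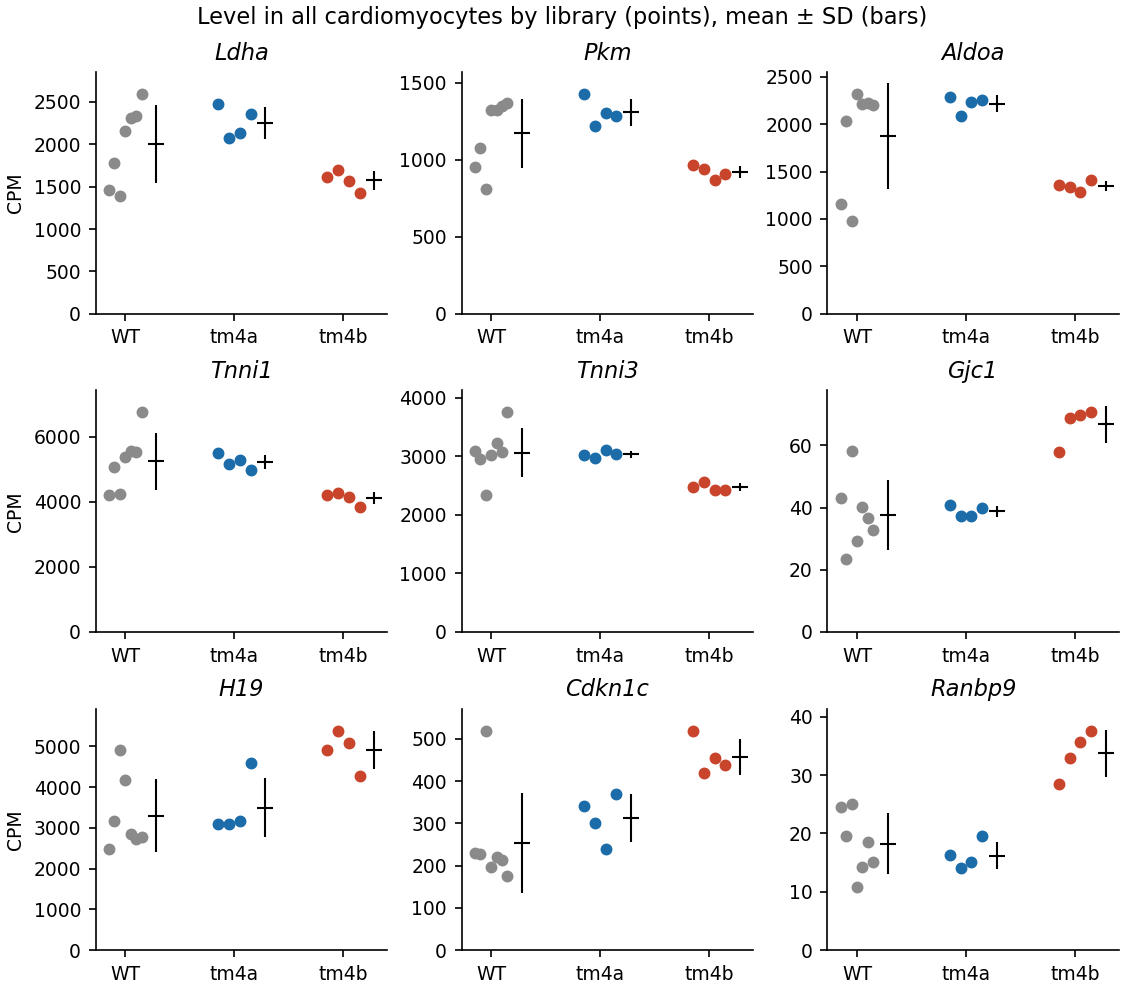
Level in CPM of 9 genes in the cardiomyocytes of each library, with each point a library of tm4a, tm4b or WT and a cross for the group mean ± SD. The tm4a and tm4b libraries do not overlap for any gene shown except H19, and the WT libraries span wider ranges than either allele.

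Nuclear-encoded subunits of the respiratory chain and ATP synthase, which carry electrons to oxygen and make ATP, fell as a group, but most of these calls were lost with the length offset. In complex I 30 of 37 genes fell, in complexes II to IV 18 of 27 and in ATP synthase 10 of 15, and 0 rose, with medians of -0.348, -0.295 and -0.329 log2. Together 58 of 79 fell (median -0.33), beside 5.84% of all genes, and with the offset 14 of 78 fell, beside 2.44%, and 1, Cox5a, rose (median -0.15). The median length of their longest transcripts was 1046, 865 and 1716 bases. Without KO replicate 7 the falls numbered 18, 8 and 6, without KO replicate 6 those of complexes II to IV and ATP synthase 11 and 6, and without KO replicate 8 those of complexes II to IV 11.

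Atp5j, the coupling factor 6 of ATP synthase, kept its fall with the offset. It stood at 2006, 1993, 1805 and 1892 CPM with tm4a and 1245, 1192, 1305 and 1312 CPM with tm4b, with no overlap (-0.61 log2, SE 0.07, edgeR adjusted p = 0.00106, and -0.39 with adjusted p = 0.00817 with the offset). Ndufs7, an iron-sulfur subunit of complex I, stood at 721, 676, 688 and 705 CPM against 517.5, 493, 479.6 and 498 CPM (-0.49, adjusted p = 0.0019, and -0.28 with 0.0199). Cox6c, a subunit of cytochrome oxidase, fell by 0.42 (adjusted p = 0.00429) and by 0.40 with the offset (adjusted p = 0.00735). Uqcr11, a small subunit of complex III, fell by 0.50 (adjusted p = 0.00208) but was not called with the offset (-0.25, adjusted p = 0.0508). Of 9 tested mitochondrially encoded genes 3 fell (mt-Nd4, mt-Co1 and mt-Cytb), or 1 without KO replicate 7. With the offset none of the 9 was called, and their median was 0.06. The share of all mitochondrially encoded transcripts in cardiomyocyte UMIs was 3.46% ± 0.202 in tm4a and 3.23% ± 0.290 in tm4b libraries (exact permutation test, p = 0.229, adjusted p = 0.429). Fatty acid oxidation, the main fuel of the adult heart, had 8 falls and 1 rise (Acadl) among 20 genes, 3 and 1 with the offset. Its falls numbered 3 without KO replicate 1 and 0 without KO replicate 7, 4 without KO replicates 3 or 6 and 2 without KO replicate 8.

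**Figure D5:**
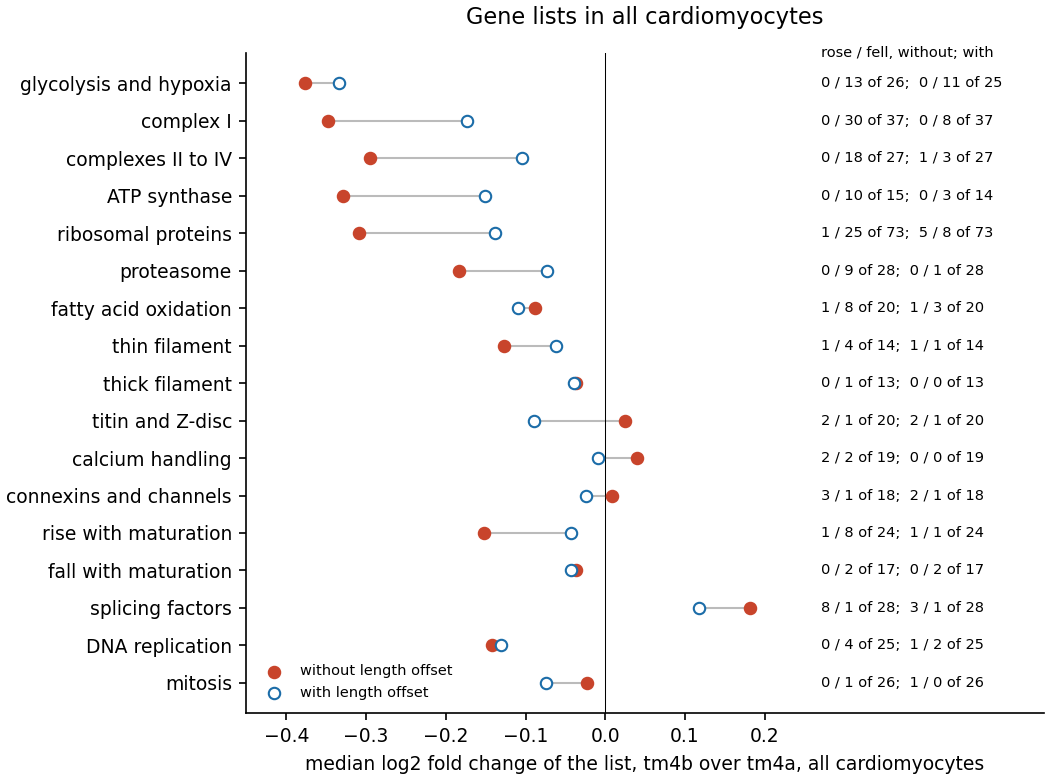
Median log2 difference (tm4b over tm4a) of 17 gene lists in all cardiomyocytes, as filled points without and open points with the transcript length offset, with the numbers that rose and fell at the right. Glycolysis and hypoxia moves from -0.38 to -0.33 with the offset, and complex I from -0.35 to -0.17.

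Some genes for making and breaking down protein also fell. Of 73 ribosomal protein genes 25 fell and 1, Rpl24, rose (median -0.31 log2), beside 5.84% of all genes that fell. With the offset 8 fell and 5 rose (median -0.14), beside 2.44% and 3.17% of all genes. The falls numbered 35 without KO replicate 4, 12 without KO replicate 7, 14 without KO replicate 8 and 16 without KO replicate 1 or 6. Rps18, of the small subunit, stood at 937, 992, 1005 and 983 CPM with tm4a and 540.1, 510.2, 577 and 572.5 CPM with tm4b (-0.83, SE 0.07, edgeR adjusted p = 9.2e-05, and -0.65 with adjusted p = 0.0022 with the offset). The groups did not overlap, and the WT libraries ranged from 428 to 1512 CPM. Ribosomal protein genes have many near-identical copies in the genome, so their counts are uncertain. In the proteasome 9 of 28 genes fell and 0 rose (median -0.18), among them Psmb2, Psmb3 and Psma4. With the offset Psmb3 alone fell, 1 of 28 genes, beside 2.44% of all genes. Without KO replicates 6, 7 and 8 in turn the proteasome falls numbered 4, 3 and 4, and 5 without KO replicate 1, 2 or 5.

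Some splicing factors rose. Of 28 such genes 8 rose (Srsf4, Srsf6, Srsf11, Mbnl1, Celf1, Luc7l2, Ddx17 and Hnrnpu) and 1, Srsf7, fell, beside 5.97% of all genes that rose, with a median of 0.18 log2. Their transcripts are long (median 4061 bases), and with the offset Srsf4, Srsf11 and Hnrnpu rose, 3 of 28 beside 3.17% of all genes, and Srsf7 fell. Hnrnpu, a nuclear RNA and chromatin binding protein, stood at 234, 325, 256 and 334 CPM with tm4a and 442, 431, 437 and 447 CPM with tm4b (0.61, SE 0.10, edgeR adjusted p = 0.00363). Srsf7, an SR protein that binds exons, stood at 166, 179.9, 189 and 199.6 CPM against 124, 130.0, 123.5 and 109.7 CPM (-0.59, SE 0.09, adjusted p = 0.00198). Neither gene overlapped between the alleles. The number that rose was 10 without KO replicate 4 and 5 without KO replicates 3, 6 or 7.

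In the contractile apparatus, 4 of 14 thin filament genes fell (Actc1, Tnni1, Tnni3 and Tnnc1) and Tmod1 rose, beside 5.84% of all genes that fell and 5.97% that rose. Actc1, Tnni1 and Tnnc1 are among the 7 genes whose UMIs chose the cells, so their differences depend on that choice and are a description. With the offset Tnni1 fell, Tmod1 rose and the difference of Tnnc1 changed sign to 0.01 log2. Of all genes 2.44% fell and 3.17% rose with the offset, which holds beside each list of this paragraph. Without KO replicate 7 or 8 the thin filament falls numbered 2. Of 13 thick filament genes 1 fell, the light chain Myl3. Its alleles overlapped, its call was lost without KO replicates 1, 3, 6, 7 or 8, and with the offset the list held 0 calls. Among 20 genes of titin and the Z disc Cmya5 and Synpo2l rose and Cryab fell, and with the offset Cmya5 and Tcap rose. Without KO replicate 5 or 8 the list of titin and the Z disc held 1 call. The main myosin heavy chains Myh6 and Myh7 were not called (0.28 and 0.03 log2, adjusted p = 0.161 and 0.885). Cmya5, a large protein of the Z disc and costamere, rose from 58.7 ± 7.28 to 92.4 ± 13.8 CPM (0.65, SE 0.12, edgeR adjusted p = 0.00498, and 0.42 with adjusted p = 0.0396 with the offset).

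Tnni3, the adult troponin I, and Tnni1, the fetal form, were both lower with tm4b. Tnni1, 1 of the genes that chose the cells and given as a description, stood at 5486, 5161, 5293 and 4970 CPM with tm4a and 4202, 4278, 4140 and 3841 CPM with tm4b (-0.35 log2, and -0.27 with the offset). Tnni3 stood at 3023, 2972, 3112 and 3051 CPM against 2483, 2572, 2426 and 2422 CPM (-0.30, SE 0.06, edgeR adjusted p = 0.0107, but -0.08 with adjusted p = 0.405 with the offset). In both genes the alleles were apart by more than the whole range within either. Of 24 tested genes known to rise as cardiomyocytes mature, 8 fell (Tnni3, Ckm, Cox6a2, Cox7a1, Cox8b, Fabp3, S100a1 and Eno3) and Ryr2 rose, with a median of -0.15. Of all genes 5.84% fell and 5.97% rose. The falls numbered 5 without KO replicate 7. With the offset Ckm fell and Tcap rose, beside 2.44% of all genes that fell and 3.17% that rose. Of 17 genes known to fall with maturation, Slc2a1 and Tnni1, the latter a gene that chose the cells, fell and 0 rose, with and without the offset. Ckm, the muscle creatine kinase, kept its fall with the offset (-0.57 and -0.54, adjusted p = 0.00296 and 0.00735), from 692 ± 96.7 to 465 ± 11.6 CPM. The share of embryonic among all globin UMIs, which declines as embryos age, was 8.23% ± 2.31 in tm4a and 12.4% ± 5.63 in tm4b libraries (exact permutation test, p = 0.257, adjusted p = 0.429). That share comes from blood RNA, and the part of embryo age in the differences was not tested.

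Among 18 genes for ion channels, pumps and gap junctions, Gjc1, Kcnj3 and Atp1b1 rose and Kcne1 fell, and with the offset Kcnj3 was no longer called. Of all genes 5.97% rose and 5.84% fell, and with the offset 3.17% and 2.44%, which holds beside each list of this paragraph. Without KO replicate 6 or 7 Gjc1 was the 1 rise of the list. Gjc1, which encodes the gap junction protein connexin 45 and lies at chr11:102799579-102819700 on the minus strand of mm10, stood at 40.8, 37.4, 37.2 and 39.9 CPM with tm4a and at 57.9, 68.9, 69.9 and 70.6 CPM with tm4b. The groups did not overlap, and the 4 tm4a libraries lay close together. The difference was 0.78 log2 (SE 0.10, edgeR adjusted p = 0.00106), and it was 0.77 with the offset (adjusted p = 0.00316). Kcne1, a subunit of the slow potassium channel, fell by 0.42 (SE 0.08, adjusted p = 0.00848, and -0.41 with the offset), from 206 ± 15.6 to 154 ± 9.20 CPM. Calcium handling had 2 rises (Ryr2, Jph1) and 2 falls (Calm2, S100a1) among 19 genes, 1 call without KO replicate 3, 5 or 7, and these 4 were not called with the offset. Of 23 cardiac transcription factors, Tbx18 alone rose, from 18.9 ± 5.40 to 35.1 ± 4.87 CPM (0.86, adjusted p = 0.00861, and 0.77 with the offset, where it was again the 1 call). Tbx18 is also an epicardial marker, and the 10 markers of that list took 0.0104 to 0.0116% of cardiomyocyte UMIs with tm4a and 0.0112 to 0.0137% with tm4b. Their part in the rise was not tested.

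Of 18 imprinted growth genes 3 features rose, namely Cdkn1c, H19 and a feature named H19_1, and 0 fell. Among all genes 5.97% rose, and with the offset 3.17% rose and 2.44% fell. With the offset Cdkn1c and H19 rose and Meg3 fell, and the median changed sign from 0.07 to -0.01 log2. H19_1 has no transcript length and so no value with the offset. Cdkn1c, a maternally expressed inhibitor of cyclin-dependent kinases at chr7:143458339-143461050 (mm10, minus strand), stood at 341, 300, 239 and 369 CPM with tm4a and 519, 418.5, 454.5 and 438 CPM with tm4b. It rose by 0.55 (SE 0.12, edgeR adjusted p = 0.011), and by 0.65 with the offset (adjusted p = 0.00788), with no overlap. H19, a maternally expressed noncoding RNA, stood at 3102, 3106, 3179 and 4582 CPM against 4914, 5388, 5093 and 4276 CPM. KO replicate 4 of tm4a was above the lowest tm4b library, and the call (0.49, SE 0.12, adjusted p = 0.016) was lost without KO replicate 6 (0.0558) or 7 (0.0534). Igf2, the paternally expressed neighbour of H19, was not called (0.08, adjusted p = 0.52).

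For DNA replication 4 of 25 genes fell (Fen1, Tyms, Mcm7 and Tk1), and for mitosis 1 of 26 (Aurka), beside 5.84% of all genes. With the offset Fen1 and Tyms fell and Pcna rose among the former, and Ccnb2 rose among the latter. The shares of all genes were then 2.44% that fell and 3.17% that rose. The flap endonuclease Fen1 fell by 0.50 (SE 0.11, edgeR adjusted p = 0.0111), from 31.0 ± 1.39 to 21.9 ± 1.27 CPM, and was called without each library in turn. Without KO replicates 3, 5, 7 or 8 the replication list held 1 call. Mki67, a marker of cycling cells, was not called (0.17, adjusted p = 0.411).

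Among stress genes, heat shock had 4 falls (Hspa8, Hsp90aa1, Hspe1 and Cryab) and 1 rise (Hsph1) in 16 genes. For this and the other stress lists, the shares over all genes were 5.84% that fell and 5.97% that rose. With the offset these shares were 2.44% and 3.17%. Hspa8, the constitutive Hsc70 chaperone, stood at 1207, 918, 1037 and 1030 CPM with tm4a and 749, 703, 677 and 777 CPM with tm4b (-0.53 log2, SE 0.09, edgeR adjusted p = 0.00363, and -0.52 with the offset), with no overlap. With the offset Hspa8 and Hsp90aa1 fell and 0 rose. The list held 1 call without KO replicate 7 and 2 without KO replicate 8. Of 18 tested genes of the ATF4 stress response Phgdh and Shmt2, enzymes of serine and folate metabolism, fell by 0.86 and 0.50 log2 (adjusted p = 0.014 and 0.00992), and both did so with the offset. Of 23 immediate early genes Myc, Zfp36 and Ier3 fell, and with the offset Myc, Zfp36 and Klf6. These genes also respond to the handling of tissue, and in the fit that omits KO replicate 4 there were 3 rises and 3 falls. Zfp36, an RNA decay factor, fell from 163 ± 21.2 to 115 ± 15.3 CPM (-0.50, adjusted p = 0.0124) and was called without each library in turn. The falls numbered 6 without KO replicate 1, 5 without KO replicate 2 and 1 without KO replicate 7. Cdkn1c and Trp53inp1 rose and Cdkn1a fell among 15 p53 targets and cell cycle inhibitors, and Ifitm2 and Ifitm3 fell among 12 of the interferon response. With the offset Cdkn1c alone was called of the former and none of the latter.

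By size, the largest rises among genes with no overlap were those of Slc9a9, an endosomal sodium and proton exchanger (1.60 log2, edgeR adjusted p = 0.00916), and Gpt2, a mitochondrial alanine transaminase (1.44, adjusted p = 0.00633). Dgkh, Rcbtb1, Wee1, H19_2, Fam120c, Tmem260, Ube2e2, Ranbp9, Tmem88b and Mdfic followed, at 1.22 to 1.05. Most levels were low, and Gpt2 stood at 2.32, 2.89, 1.05 and 1.89 CPM with tm4a and 6.32, 5.86, 5.70 and 5.50 CPM with tm4b. Ranbp9, a scaffold protein of an E3 ubiquitin ligase, stood at 16.3, 14.01, 15.1 and 19.5 CPM against 28.5, 33.0, 35.7 and 37.6 CPM (1.05, SE 0.14, adjusted p = 0.00129, and the same with the offset). Wee1, the kinase that holds back entry into mitosis, rose from 3.73 ± 0.760 to 8.78 ± 1.39 CPM (1.20, adjusted p = 0.00597). Dgkh, Fam120c, Tmem260, Tmem88b and Mdfic lost their call in at least 4 of the 8 fits that omit a library, and H19_2 without KO replicate 5 (adjusted p = 0.0508).

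The largest falls among genes with no overlap were those of Atp5l-ps1, Kctd7, Aldoart1, Myc, Apoo, Ndufs5, Flt1, Rpl35, Rpl36, Hmgb1, Cks2 and Bloc1s1, from -1.13 to -0.89 log2. Apoo, a protein of the mitochondrial cristae junctions, stood at 51.9, 45.6, 47.0 and 37.7 CPM with tm4a and 21.8, 19.7, 23.4 and 25.2 CPM with tm4b (-1.03, SE 0.13, edgeR adjusted p = 0.00106, and -0.86 with adjusted p = 0.0046 with the offset). The groups did not overlap. Ndufs5, a complex I subunit, fell from 95.3 ± 17.7 to 47.0 ± 12.1 CPM (-1.03, adjusted p = 0.00363, and -0.78 with the offset). Aldoart1 and Atp5l-ps1 are near copies of Aldoa and of an ATP synthase gene, and Hmgb1 has many copies, so their counts are uncertain. Flt1 is a marker of endothelial cells, whose 12 markers took 0.00947 to 0.0185% of cardiomyocyte UMIs with tm4a and 0.00824 to 0.0142% with tm4b, and their part in its fall was not tested. Kctd7, Flt1, Atp5l-ps1 and Bloc1s1 lost their call in at least 3 of the 8 fits that omit a library, and Myc without KO replicate 7 (adjusted p = 0.0617).

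A pair of predicted gene models lay outside the rule for naming genes and was chosen after the values were seen. Gm10800 had 0 UMIs in the 4 tm4a libraries and 86 UMIs in tm4b cardiomyocytes (2.35 to 6.66 CPM), which is at least 25.6-fold higher when 3 counts over the tm4a group are taken as its floor. It had 1 UMI in the cardiomyocytes of the 7 WT libraries and 2 in their other cells. It was the call that remained with all 15 libraries in the fit (edgeR adjusted p = 0.00168), and in the other cells it was at least 33.0-fold higher in tm4b. Gm26762 had 5 UMIs with tm4a, 102 with tm4b and 46 in WT, all of them in WT replicate 3. Its model, at chr7:34224755-34230236 on the plus strand, lies within the span of the glycolytic gene Gpi1 (chr7:34201330-34230336, minus strand), and the sources do not say whether strand was used in counting. Gpi1 fell by 0.40 (SE 0.07, adjusted p = 0.00547).

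Of 11 genes listed around Adamts19 on its chromosome, 6 were tested, Isoc1 rose (0.54 log2, edgeR adjusted p = 0.0162) and Hint1 fell (-0.23, adjusted p = 0.0479). Of all genes tested 11.8% were called in either direction, and 6 genes are too few to set against that share. The call of Isoc1 was lost without KO replicate 6 (0.0533). That of Hint1 was lost without each library, and its difference was 0.02 with the length offset.

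In ventricular cells 1130 of 10820 genes passed (10.4%), 577 higher (5.33%) and 553 lower (5.11%) in tm4b, and with the length offset 628 of 10741 (5.85%, and 2.47% for the lower genes alone). In atrial cells 394 of 8115 passed (4.86%), 141 higher (1.74%) and 253 lower (3.12%), and 67 of 8111 with the offset (0.826%, and 0.505% for the lower genes alone). The atrial sums hold fewer cells, so a lower count there does not show fewer differences. Without KO replicate 7 the counts were 510 and 87. Without KO replicate 4 they were 1444 and 342, and without KO replicates 3, 5 and 8 the ventricular count was 682, 667 and 684, and without KO replicates 5, 6 and 8 the atrial count 233, 177 and 181. The glycolysis and hypoxia list had 13 falls and 1 rise among 26 genes in ventricular cells (median -0.33 log2) and 12 falls and 0 rises among 24 in atrial cells (median -0.45). With the offset there were 10 falls of 25 and 5 of 23.

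Ldha fell in ventricular cells from 2491 ± 178 to 1838 ± 160 CPM (-0.44, SE 0.08, edgeR adjusted p = 0.00433) and in atrial cells from 1316 ± 176 to 815 ± 65.1 CPM (-0.69, SE 0.10, adjusted p = 0.00119). Gjc1 rose in ventricular cells from 41.1 ± 1.97 to 71.4 ± 6.52 CPM (0.79, adjusted p = 0.00106) and in atrial cells from 27.97 ± 1.21 to 53.1 ± 9.63 CPM (0.92, adjusted p = 0.0123). Neither gene overlapped between the alleles in either chamber. The largest ventricular rises were those of Gpt2 and Rcbtb1 (both 1.49), and the clock gene Arntl rose there by 1.18 (adjusted p = 0.0142). In atrial cells Ctla2a, which encodes an inhibitor of cysteine proteases, stood at 12.3, 11.1, 24.1 and 16.7 CPM with tm4a and 43.2, 53.2, 47.9 and 92.9 CPM with tm4b (1.97, SE 0.29, adjusted p = 0.00119). Mrps21, of the mitochondrial ribosome, stood at 185, 176, 182 and 144 CPM against 85.4, 81.5, 80.5 and 95.2 CPM (-1.01, SE 0.13, adjusted p = 0.000462, and -0.70 with adjusted p = 0.0165 with the offset). Both kept their call without each library, and neither overlapped between the alleles.

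Whether the allele difference itself differed between chambers was tested by an interaction with each library as a block. Of 10557 genes 2 passed (0.0189%), Atf3 and Pf4, with 546 at an unadjusted p under 0.05, and 7, 4, 8, 4 and 5 passed without KO replicates 1, 3, 4, 5 and 7. Atf3, a stress-induced transcription factor, stood in atrial cells at 351, 306, 577 and 750 CPM with tm4a and 945, 971, 905 and 753 CPM with tm4b. In ventricular cells it stood at 218, 305, 324 and 387 CPM against 340, 267, 315 and 336 CPM. So it was higher with tm4b in atrial cells and overlapped in ventricular cells. The atrial minus the ventricular difference was 0.85 log2 (SE 0.14, edgeR adjusted p = 0.0176), and it was 0.74 without KO replicate 6 (adjusted p = 0.0664). Where cells had to hold at least 5% sarcomere UMIs the Atf3 difference was not called.

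Pf4, a chemokine of platelets and macrophages, stood in atrial cells at 17.1, 27.3, 16.7 and 7.06 CPM with tm4a and at 16.0, 52.1, 88.3 and 135 CPM with tm4b, which overlap. In ventricular cells it stood at 13.0, 19.3, 12 and 26.5 CPM against 4.35, 17.8, 25.8 and 20.5 CPM. The difference between chambers was 1.93 (SE 0.34, adjusted p = 0.0202 by edgeR), and it was 1.63 without KO replicate 8 (adjusted p = 0.104). The Pf4 call was also lost at 5% sarcomere UMIs, with cells thinned to 1000 UMIs and without the 5% of barcodes with most UMIs. Macrophage markers, a list that holds Pf4, took 0.002 to 0.0134% of atrial cardiomyocyte UMIs with tm4a and 0.00905 to 0.0166% with tm4b. The part of macrophage RNA in this difference was not tested.

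The cells that were not cardiomyocytes differed between the alleles as well. There 1398 of 12503 genes passed (11.2%), 696 higher (5.57%) and 702 lower (5.61%), and 622 of 12406 with the length offset (5.01%, and 2.22% for the lower genes alone). The count was 473 without KO replicate 7, and 903, 803, 876, 818 and 612 without KO replicates 2, 3, 5, 6 and 8. Ldha fell from 907 ± 143 to 562 ± 35.0 CPM (-0.69 log2, SE 0.11, edgeR adjusted p = 0.00509), and Pkm from 515 ± 51.0 to 347 ± 6.15 CPM (-0.57, adjusted p = 0.00491). Gjc1 rose from 40.8 ± 8.37 to 77.2 ± 4.67 CPM (0.91, adjusted p = 0.00401), and H19 from 14920 ± 641 to 20420 ± 2050 CPM (0.45, adjusted p = 0.00733). Of the glycolysis and hypoxia list 9 of 26 fell and 0 rose (median -0.33), and with the offset 7 of 25 fell. Apart from LacZ no gene passed the test for a difference between cardiomyocytes and the other cells, with 839 at an unadjusted p under 0.05, and nothing else here is called particular to cardiomyocytes. The number of calls of that test was 7 without KO replicate 1, 4 without KO replicate 4, 6 without KO replicate 5 and 2 without KO replicate 8.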

How the data were processed

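Single cells of 15 heart libraries were profiled by Drop-seq. The deposited table holds UMI counts of 16809 genes in 55152 barcodes, made by the authors from polyadenylated RNA aligned to mm10, with bcl2fastq 2.17 and Seurat 2.1 named in the submitters' processing notes. The fewest genes in a deposited barcode is 251 and the highest mitochondrial share 10%. No source used here names the aligner or the use of strand. Every barcode carries its library's name.

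Counts of the cells of a class were summed per library and tested with edgeR 4.0.16 in R 4.3.3 (TMM factors, filterByExpr, quasi-likelihood, 4 against 4, Benjamini-Hochberg adjustment over all genes tested). Printed levels are CPM of the tested genes scaled by TMM factors of all 15 libraries. Ratios, interaction levels and floors use the class total instead. Interactions had the library as a block. Doublets were not called, and an alternative leaves out the 5% of barcodes with most UMIs. The length offset is a loess trend (span 0.5) on the longest GENCODE M21 transcript, found for 98.5% of genes. Floors cover counting error only. The fits were tested on simulated counts, with and without a trend on length. In simulated cardiomyocyte sums without a trend, 6 unchanged genes of 11230 tested were called. With a trend, 1067 of 11220 genes tested were called without the offset though nothing else changed them, and 7 with the offset. The size of the simulated trend was set and not taken from these libraries.

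Named genes were Adamts19, LacZ, the 12 largest changes in each direction among called genes without overlap (6 in other classes), and up to 4 called members of each list by adjusted p, with predicted models left out. Bnip3, Gpi1, Gapdh, Vegfa, Pgk1, Eno1, Slc2a1, Myl2, Myh6, Myh7, Nppa, Pcna, Mki67, Igf2 and further list members given without full statistics were chosen after their values were seen. The members and lists were chosen with earlier results of these data known. Some called list members are not reported here.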

Additional observations from a re-analysis of the deposited data

Results flagged for a closer look

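In groups of 4 libraries, 9 of 246 groups tested held a library far from the other 3, where chance alone gives about 12.3 (1 in 20). In tm4a cardiomyocytes these were KO replicate 1 for H19_2 (9.096 CPM), Cryab (2122 CPM) and Gapdh (53.03 CPM), and KO replicate 4 for Ier3 (411.4 CPM) and H19 (4582 CPM). In tm4b cardiomyocytes it was KO replicate 5 for H19_2 (15.34 CPM), Aldoart1 (2.887 CPM), Gjc1 (57.92 CPM) and Eno1 (150.3 CPM).

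The allele difference itself differed between atrial and ventricular cells for Atf3 (0.851 log2) and Pf4 (1.93 log2), and between cardiomyocytes and other cells for LacZ (-1.94 log2), each by the interaction test of edgeR. The Atf3 call was lost without KO replicate 6, the Pf4 call without KO replicate 8, and both where cells held at least 5% sarcomere UMIs.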

How the results depend on the processing

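No paired analysis was possible because the tm4a and tm4b libraries share no litter. The offsets combined with other fits, the length and GC offset, and the length offset in other cells were chosen after seeing the data.

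Of the counts of called genes, those in all, ventricular and atrial cardiomyocytes were 1, 0 and 0 with all 15 libraries in the edgeR fit (1573, 1397 and 1006 at an unadjusted p under 0.05) and 1, 0 and 1 with the length offset added. Summed per litter they were 0, 0 and 1 (410 and 392 unadjusted for the first and the second), and 0, 0 and 0 with the offset added (470, 475 and 277 unadjusted). They were 567, 449 and 112 with cells thinned to 1000 UMIs, 635, 628 and 67 with the length offset, and 661, 650 and 73 with length and GC. Other cells gave 795 thinned and 622 with the length offset. Leaving out 1 library gave 555 to 1613, 510 to 1444 and 87 to 346 calls in these cardiomyocyte classes and 473 to 1591 in other cells. DESeq2 called 1412, 1171 and 421. The difference between chambers gave 0 calls at 5% sarcomere UMIs (509 unadjusted), 6 at 500 genes, 1 thinned, 34 without a filter and 2 to 8 without 1 library. That between cardiomyocytes and other cells gave 9 at 5% sarcomere UMIs, 16 thinned, 7 without a filter and 1 to 7 without 1 library. The median of the longest minus the shortest length bin ran from 0.273 to 0.332 without 1 library.

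Some differences changed sign. LacZ in other cells became 0.17 thinned and 0.42 without KO replicate 3. In the order all 15 libraries with length, litters with length, length with GC, and length alone, Hint1 became 0.024, 0.010, 0.054 and 0.024, Myl2 0.11, 0.028, 0.12 and 0.11, and Myh7 -0.11, -0.097, -0.091 and -0.12. Without the litter fit, Tnnc1 became 0.0085, 0.040 and 0.0089, and Mki67 -0.041, -0.064 and -0.043. Igf2 became -0.012 with all 15 libraries with length and -0.013 with length alone. Leaving out 1 library, Myl2 ran from -0.19 to 0.00023 (the latter without KO replicate 1), Myh7 from -0.043 (without KO replicate 8; -0.028 without KO replicate 2) to 0.10, and LacZ in other cells from -0.39 to 0.42. Myh7 was -0.036 at 5% sarcomere UMIs. The Cxcl2 difference between chambers, which was not called, turned from positive to -1.83 at 5% sarcomere UMIs. It rests on few counts, as the atrial sums at the 2% limit held 1 to 28 Cxcl2 UMIs per knockout library.

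The tm4b minus tm4a difference in median UMIs (-27.5) was 317 at 500 genes and ran from -110 to 103 without 1 library, being 103, 22 and 19.3 without KO replicates 1, 5 and 7. Without 1 library the cardiomyocyte share ran from -7.99 to -2.87 percentage points, the atrial share from 1.86 to 6.91, the mitochondrially encoded share from -0.335 to -0.111 and the embryonic globin share from 2.20 to 6.67. The causes of these shifts were not tested.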
